A study of Mus musculus with 41 samples.

Results

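The comparison described here is that of sham surgery in the non-epithelial stroma of the mouse thymus. Its members were chosen by their labels: the 5 arrays of sham-castrated mice and the 3 arrays of unoperated mice of the same age, 8 of the 41 arrays in the series. Sham-castrated mice gave 3 arrays at day 4 and 2 arrays at day 7. All 8 arrays came from male C57Bl/6 mice aged 9 to 12 months, with no transgene named. The stroma, called nonTEC by the labels, was sorted as cells negative for both CD45 and EpCAM, so that it should hold neither leukocytes nor thymic epithelial cells (TEC). The series also holds castrated and young (5 to 6 weeks old) nonTEC and the same kinds of groups in TEC. The labels do not say whether arrays of a group came from separate or pooled animals, so the spread between them may be technical. Neither a slide nor a scan was given for any array, and surgery and any such batch cannot be told apart.

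The non-epithelial stroma of the thymus is made of fibroblasts, endothelial cells and the mural cells of vessels. It builds the capsule, the septa and the vessels through which progenitors enter, and secretes growth factors that act on the epithelium. Castration removes androgens, after which an involuted thymus transiently regrows. Sham surgery exposes the animal to anaesthesia, incision and stress without removing the testes, and surgical stress is known to raise glucocorticoids, to which thymocytes are sensitive. The comparison of sham-operated with unoperated mice asks what the operation alone left in the stroma at days 4 and 7.

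Fibroblast and endothelial markers were read on all 8 arrays, beside transcripts of other cells. Values are levels on the deposited log2 intensity scale, on which a difference of 1 is 2-fold. Pdgfra, the receptor that marks thymic fibroblasts, lay between 12.26 and 13.32, and decorin (Dcn), a fibroblast proteoglycan, between 13.96 and 14.55. Pecam1, the endothelial adhesion molecule, lay between 7.70 and 9.51. Ptprc, which encodes CD45, lay between 4.38 and 5.13, and the epithelial keratin gene Krt5 between 4.47 and 5.28, both near the lowest values of the arrays. Other leukocyte and epithelial transcripts were well above them. Laptm5, a lysosomal membrane protein of leukocytes, lay between 10.37 and 11.65, Coro1a, an actin regulator of leukocytes, between 8.62 and 9.96, and Cd8b1, the CD8 β chain of thymocytes, between 10.17 and 11.64. The epithelial keratin genes Krt8 and Krt14 lay at 7.02 to 9.00 and at 6.55 to 9.02. Epcam was not analysed here, and the part of these other cells in the results below was not tested.

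The unoperated arrays stood apart from one another, which bears on each result below. Over the 7771 genes tested, arrays correlated at 0.951 to 0.968 within the unoperated group and at 0.978 to 0.991 within the sham arrays. In the unoperated group, 761 genes (9.79%) spread over 2-fold or more, against 240 (3.09%) among the sham arrays of day 4 and 24 (0.309%) between the 2 of day 7. Unoperated array 3 carried granulocyte transcripts, with a mean of 8.86 over 13 marker genes where the other 7 arrays had 5.52 to 6.19. Its mean was also highest for endothelium, at 9.48 against 8.0 to 8.57. Unoperated array 1 was the lowest of the 8 for MHC class II genes, at a mean of 6.50 against 6.91 to 7.78. The part of these differences between arrays in the results below was not tested beyond leaving out the arrays.

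Few genes passed the test between sham-operated and unoperated stroma. In the average over both days, 19 genes were higher and 3 lower after sham surgery, 22 of 7771 (0.283%, with 0.244% higher and 0.0386% lower) at an adjusted p under 0.05 (limma, Benjamini-Hochberg). At an unadjusted p under 0.05 there were 1616 of the 7771. With 1 array left out the number called ran from 0 to 353, so the low count does not show a small difference. The 19 rose by 0.54 to 1.32, and the adjusted p of the 22 lay between 0.0267 and 0.0464, close under the threshold. All 22 moved the same way on both days, but they were chosen on the average of the days. Both differences also share the unoperated arrays, so this is no separate support. For 20 of the 22 the 5 sham arrays lay wholly to one side of the 3 unoperated arrays, as they did for 6.13% of all genes tested on the higher and 4.9% on the lower side. The other two were Rps26 and Wfdc2. For 7228 genes (93%) the 95% interval of the difference lay within 1 log2 unit of 0. The median difference over all genes was 0.01.

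**Figure D1:**
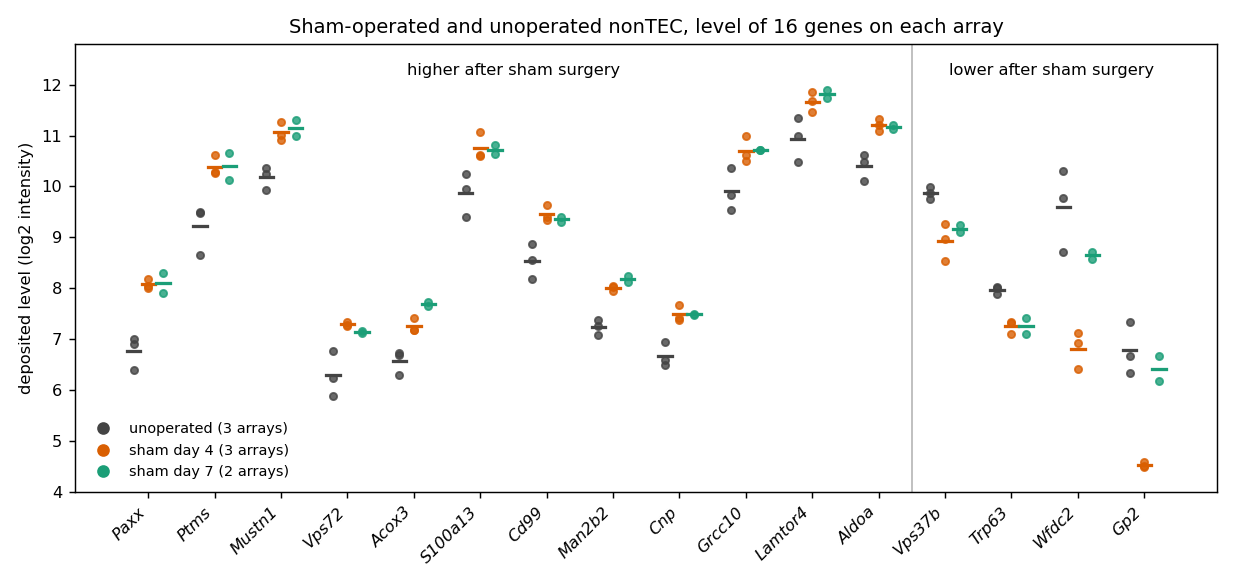
Levels (log2 intensity, y axis) of 16 genes (x axis) on the 8 nonTEC arrays. Each point is an array and each short line a group mean; the 12 genes on the left rose after sham surgery, of those on the right Vps37b, Trp63 and Wfdc2 fell in the average over days, and Gp2 fell at day 4 (adjusted p = 0.0205).

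The largest rise was in Paxx, a factor of DNA double-strand break repair by end joining. Its level was 6.40, 6.90 and 7.00 on the unoperated arrays, 8.04, 8.0 and 8.19 at day 4 and 7.90 and 8.31 at day 7. Every sham array lay above every unoperated array by at least the spread within the groups, and the difference was 1.32 ± 0.22 (SE, adjusted p = 0.0279). Ptms encodes parathymosin, a small acidic nuclear protein. Its level was 8.65, 9.51 and 9.48 without surgery, 10.61, 10.28 and 10.27 at day 4 and 10.67 and 10.13 at day 7. The groups did not overlap and the difference was 1.18 ± 0.18 (SE, adjusted p = 0.0267). A second Ptms probe had a mean of 8.05 without surgery, 8.89 at day 4 and 8.85 at day 7, a difference of 0.82. Mustn1, a small nuclear protein of developing muscle and cartilage, rose by 0.93, from 9.94, 10.25 and 10.36 to between 10.91 and 11.31 on the sham arrays. A second Mustn1 probe, with a mean of 10.37 without surgery, differed by only 0.38. Vps72, a subunit of complexes that place a histone variant in chromatin, rose by 0.92.

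Man2b2 encodes a lysosomal mannosidase. It read 7.37, 7.26 and 7.08 without surgery and 7.96 to 8.24 on the 5 sham arrays, a rise of 0.86 ± 0.14 (SE, adjusted p = 0.0279). The sham arrays lay close together and above all unoperated arrays, but 2 dimmer Man2b2 probes differed by only -0.26 and 0.02. Lamtor4, a subunit of the Ragulator complex that recruits the growth regulator mTORC1 to lysosomes, rose by 0.80. Cln6, a protein of the endoplasmic reticulum whose loss causes a lysosomal storage disease of neurons, rose by 0.76, and by 0.60 on a dimmer probe. Acox3, a peroxisomal oxidase of branched fatty acids, rose by 0.90, from 6.29 to 6.73 without surgery to 7.17 to 7.41 at day 4 and 7.65 and 7.73 at day 7. Cd99, a surface glycoprotein used by leukocytes crossing endothelium, rose by 0.87. S100a13, a calcium-binding protein released with growth factors, rose by 0.88. Cnp, a phosphodiesterase best known from myelin, rose by 0.81, but a dimmer Cnp probe differed by only 0.22. Grcc10 rose by 0.80.

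Aldoa, the aldolase of glycolysis in most tissues, was the member of the 35 gene lists that passed. Its levels of 10.10, 10.62 and 10.47 without surgery compared with 11.20, 11.09 and 11.33 at day 4 and 11.21 and 11.13 at day 7. The groups were separated by almost the width of the unoperated group, and the rise was 0.79 ± 0.15 (SE, adjusted p = 0.0430). The rest of the glycolysis and hypoxia list did not pass: of 15 members tested 1 was called, and the median difference was -0.01, beside 0.01 over all genes. Pkm, the pyruvate kinase, differed by 0.35 (adjusted p = 0.0766; called without unoperated array 3, at 0.38), Gapdh by 0.21, Ldha by 0.03 and Pgk1 by -0.01. The sequence before 2 annotated starts of Aldoa is shown because Aldoa was the called list member; the probe does not tell which start was used. Both are 250 bases from RefSeq (GRCm38.p6), minus strand, 5′ to 3′, with matches to AP-1 (TGANTCA) and to AGAACA (an arm of the palindromic glucocorticoid response element, either strand) in capitals; E-box letters CACGTG were searched too.
Aldoa upstream start, chr7:126800448-126800697: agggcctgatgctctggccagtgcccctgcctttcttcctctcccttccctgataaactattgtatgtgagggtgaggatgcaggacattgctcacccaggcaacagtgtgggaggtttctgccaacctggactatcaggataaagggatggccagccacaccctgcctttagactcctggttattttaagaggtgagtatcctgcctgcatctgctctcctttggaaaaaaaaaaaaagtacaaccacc
Aldoa downstream start, chr7:126799255-126799504: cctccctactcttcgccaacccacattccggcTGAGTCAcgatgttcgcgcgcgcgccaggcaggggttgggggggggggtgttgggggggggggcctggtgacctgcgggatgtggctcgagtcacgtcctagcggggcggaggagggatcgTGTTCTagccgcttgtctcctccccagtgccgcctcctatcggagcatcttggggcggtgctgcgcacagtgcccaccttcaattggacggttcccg
The first holds none of these 3 motifs and the second holds 1 match to AP-1 and 1 to AGAACA. Over all 32851 promoters of 300 bases in the table, 7.81% hold the AP-1 letters, 19.0% AGAACA and 7.15% the E-box; over the 8163 promoters of the genes tested the shares are 5.06%, 12.2% and 10.2%. Of the 22 called genes, 17 matched the table with 20 promoters, of which 1 held the AP-1 letters, 4 AGAACA and 2 the E-box. Those with AGAACA belong to Aldoa, Lamtor4 and Paxx. A further Aldoa promoter, not shown, overlaps that of the downstream start and holds the same AGAACA site, which is thus counted again.

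The other called genes that rose were Vat1 (0.77), the β-tubulin gene Tubb4b (0.76), Ubl7 (0.61), the pseudogene Ndufs5-ps (0.87) and the ribosomal protein genes Rps26 (0.67) and Rplp2 (0.54). Tubb4b was the gene of this group with the least spread before surgery, at 10.46, 10.50 and 10.49 against 11.11 to 11.44 on the sham arrays. Rps26 overlapped between the groups, since sham day 4 array 2, at 13.32, lay below unoperated array 3, at 13.36. Ndufs5-ps and the ribosomal protein genes have near-identical copies in the genome, and their probes may read several of them.

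**Figure D2:**
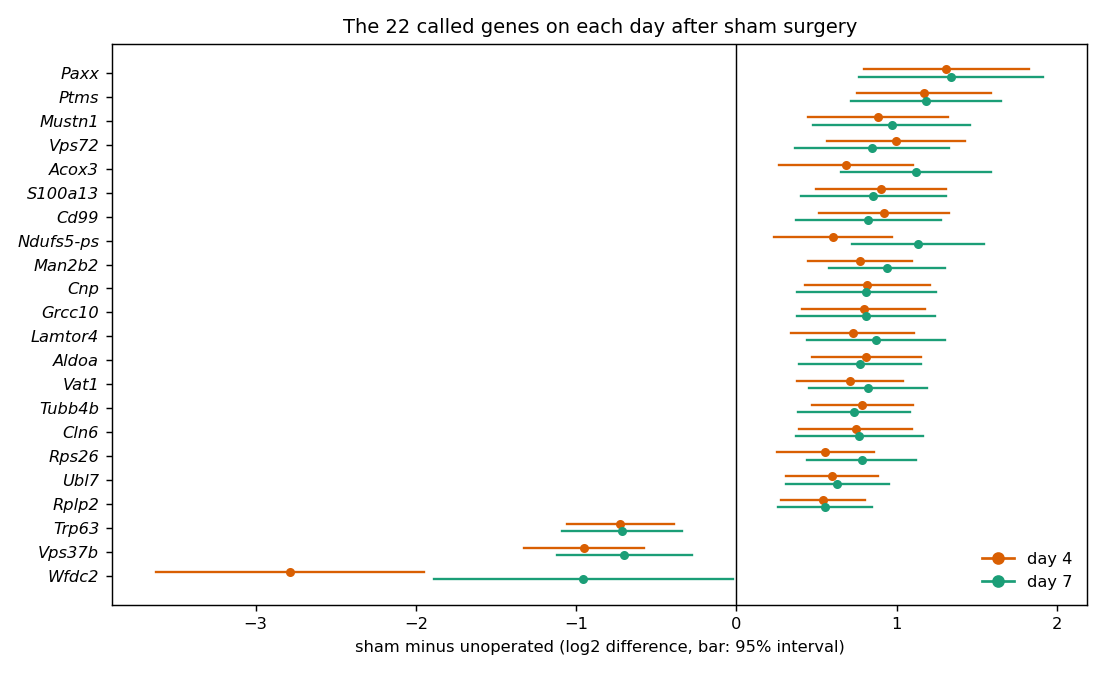
Difference between sham-operated and unoperated nonTEC (log2, x axis) for each of the 22 called genes (y axis), at day 4 and at day 7; points are estimates and bars 95% intervals. The intervals of both days overlap for all genes but Wfdc2, whose difference was -2.78 at day 4 and -0.95 at day 7.

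The genes that fell were Wfdc2, Vps37b and Trp63. Trp63 encodes p63, a transcription factor that stratified and thymic epithelium needs. It read 7.89, 8.03 and 8.0 without surgery, 7.33, 7.31 and 7.11 at day 4 and 7.42 and 7.10 at day 7, a fall of 0.72 on the log2 scale (adjusted p = 0.0438). Vps37b, a subunit of the ESCRT-I complex that sorts membrane proteins for degradation, read 9.98, 9.76 and 9.87 without surgery and 8.53 to 9.27 after it, a fall of 0.83. Both genes separated the groups on every array. Wfdc2, a secreted protein of glandular epithelium, read 8.71, 10.31 and 9.77 without surgery, 6.92, 6.41 and 7.11 at day 4 and 8.72 and 8.57 at day 7. It was thus low on all 3 arrays of day 4, while at day 7 its arrays lay next to the lowest unoperated array. Its average fell by 1.87 ± 0.36 (SE, adjusted p = 0.0438).

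Markers of thymic epithelium were lower without passing the test. All 8 epithelial markers tested had values below 0 in the average, 0 of them called, with a median of -0.65. Of these, Ltf is also a granulocyte marker. Aire, with a difference of -0.02, lay at 4.59 to 5.93 on all 8 arrays, below the filter on dim genes. The mean of the list over 14 measured genes was 5.91, 6.45 and 7.05 on the unoperated arrays, 5.89 to 6.05 at day 4 and 6.29 and 5.89 at day 7. Krt8, an epithelial keratin, read 7.41, 9.00 and 8.69 without surgery and 7.02 to 8.13 after it (difference -0.89, adjusted p = 0.129). Psmb11, the proteasome subunit of cortical epithelium, lay at 4.64 to 5.42 on all 8 arrays. Without unoperated array 1 the median of the list was -1.10. Without unoperated array 3 it was -0.22, with 2 of 8 above 0, while Trp63 differed by -0.71 (adjusted p = 0.0303) and Wfdc2 by -1.78 (adjusted p = 0.0295). In bulk samples, fewer cells of a type and less RNA per cell cannot be told apart. Whether epithelial RNA in the sorted stroma had a part in the falls of Wfdc2 and Trp63 was not tested.

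At day 4 alone 3 genes were called (0.0386%, with 0.0129% higher and 0.0257% lower; 1329 at an unadjusted p under 0.05). They were Wfdc2, which fell by 2.78 (adjusted p = 0.0119), Gp2, which fell by 2.25 (adjusted p = 0.0205), and Ptms, which rose by 1.17 (adjusted p = 0.0349). Gp2, a membrane glycoprotein of secretory granules and of epithelial M cells, read 7.34, 6.33 and 6.67 without surgery, 4.51, 4.48 and 4.59 at day 4 and 6.67 and 6.17 at day 7. The arrays of day 4 lay near the floor of the array, so the fall of Gp2 is a lower bound, and those of day 7 lay among the unoperated arrays. At day 7 alone 0 genes were called by limma (0%; 1089 at an unadjusted p under 0.05), with a smallest adjusted p of 0.117. The 5 genes of smallest p without overlap at day 7 were Man2b2 (0.94), Ptms (1.18), Acox3 (1.12), Paxx (1.34) and Rps26 (0.78), all higher. The 2 arrays of day 7 give larger standard errors than the 3 of day 4, so the lower count does not show a smaller effect.

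Between the days themselves 0 genes were called by limma (0%; 248 at an unadjusted p under 0.05). The genes of smallest p were Gp2, which differed by 1.89 between day 7 and day 4, Nfkb2 (-0.87), Myl10 (1.23), Wfdc2 (1.83) and Setd7 (-0.56), each with an adjusted p of 0.9998. Nfkb2, which encodes the p100 precursor of the non-canonical NF-kB pathway used by thymic stroma, had a mean of 8.33 at day 4, 7.45 at day 7 and 7.98 without surgery. The values of the 2 days thus lay on either side of the unoperated mean without passing the test.

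Genes of surgical stress were not called over the 8 arrays. Of 18 glucocorticoid targets tested, 0 were called, the median difference was 0.01, and for 16 the 95% interval lay within 1 log2 unit of 0. Fkbp5, which encodes a chaperone that glucocorticoids induce, read 9.27, 9.20 and 8.96 without surgery, 9.36, 9.64 and 9.54 at day 4 and 9.27 and 9.20 at day 7 (difference 0.23, adjusted p = 0.304). The arrays of day 4 were all above the unoperated arrays, and those of day 7 were not. Tsc22d3, the glucocorticoid-induced leucine zipper, differed by -0.04 (95% interval -0.36 to 0.27). Ddit4, an inhibitor of mTORC1 that glucocorticoids and hypoxia induce, differed by 0.47. It read 10.37, 10.15 and 11.05 without surgery and 10.96 to 11.02 after it, so unoperated array 3 lay above every sham array. Without that array Ddit4 was called, at 0.73 (adjusted p = 0.0129), and the median of the list was 0.09. Zbtb16 and Klf15, strongly induced targets in other cells, lay below the filter on dim genes.

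Acute-phase and inflammatory genes gave the same count. Of 13 acute-phase genes tested 0 were called, with a median of 0.02. Saa3, the serum amyloid of macrophages and fibroblasts, read 5.87, 6.24 and 6.32 without surgery and 6.16 to 6.95 after it. Ptx3, a pentraxin made by stromal cells on injury, read 11.85, 12.13 and 10.68 without surgery and 10.30 to 11.33 after it (difference -0.67, adjusted p = 0.276). Socs3, induced by IL-6, differed by -0.10. Of 23 cytokines and chemokines 0 were called, with a median of -0.07. Il6 read 8.90, 9.18 and 9.36 without surgery, 10.10, 10.04 and 8.64 at day 4 and 9.28 and 8.97 at day 7, so that 2 arrays of day 4 were high and the third was the lowest of the 8. Ccl2 differed by -0.07, and Tnf, Lif and Csf3 were below the filter. Of 21 interferon-response genes 0 were called (median -0.02), among them Rsad2 at -0.74 and Irf1 at -0.38. Of 19 immediate early genes 0 were called (median -0.06), and the interval lay within 1 log2 unit of 0 for all 19. Of 16 heat shock genes 0 were called (median 0.03). Irf1 was called lower without unoperated array 3, at -0.47 (adjusted p = 0.0267), where the medians were 0.13 for acute-phase, 0.0038 for cytokine and chemokine, -0.06 for interferon-response and 0.09 for heat shock genes.

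Of 11 circadian clock genes tested, 0 were called and 7 were lower, with a median of -0.26. Per2, a repressor of the clock, read 9.69, 8.99 and 9.17 without surgery, 8.48, 8.58 and 8.56 at day 4 and 8.68 and 8.36 at day 7. Its groups did not overlap, yet the difference of -0.75 did not pass (adjusted p = 0.118). Bhlhe40, a repressor that the clock and stress signals induce, differed by -0.61 (adjusted p = 0.0603). Without unoperated array 1 the median of the list was -0.13. Bhlhe40 was called lower when unoperated array 3 was left out, at -0.63 (adjusted p = 0.0330). Per1 differed by 0.04 and Dbp by 0.08. The hour at which the mice were killed is not given in the sources used here.

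Growth factors and matrix of the stroma, with which it supports the epithelium, gave 0 called members over the 8 arrays. Of 13 growth factors the median was 0.01. Fgf7, the keratinocyte growth factor, differed by 0.01 (95% interval -0.44 to 0.46), Fgf10 by 0.18 and Bmp4 by 0.27. Igf1, insulin-like growth factor, read 9.82, 10.44 and 10.16 without surgery and 10.67 to 10.97 after it, a difference of 0.62 that did not pass (adjusted p = 0.112). Of 12 Wnt pathway genes the median was 0.16, and Wnt5a differed by 0.13. Of 21 genes of TGF-β and BMP signalling it was 0.05. The medians of these lists without unoperated array 3 were -0.12, 0.07 and -0.09. In the last of them 3 genes were then called: Ccn1, a matricellular protein, at 0.51 (adjusted p = 0.0319), and the receptor genes Bmpr1a at -0.68 (adjusted p = 0.0418) and Tgfbr2 at -0.55 (adjusted p = 0.0129). Of 28 matrix genes the median was -0.04, with Col6a2, a chain of collagen VI, at 0.73 (adjusted p = 0.0612) and Thbs1, thrombospondin, at -0.93 (adjusted p = 0.267). The matrix median was -0.23 without unoperated array 3, with 24 of 28 genes lower, and 0.09 without unoperated array 1. Of 16 matrix-remodelling genes it was -0.01, and -0.10 without array 3. Cxcl12 and Cxcl13, chemokines of the stroma, differed by -0.27 and 0.22, and Acta2, the actin of mural cells, by -0.31.

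Granulocyte and endothelial markers differed with unoperated array 3. All 13 granulocyte markers were lower after surgery, 0 called, with a median of -0.97. On all 8 arrays 2 of the 13 lay below the filter on dim genes. Mpo, the myeloperoxidase of granulocyte precursors, read 6.15, 6.14 and 11.06 on the unoperated arrays and 4.89 to 6.71 on the sham arrays. Only unoperated array 3 was high, and without it the median of the list was 0.13, while without unoperated array 1 it was -1.51. Of 19 endothelial markers 17 were lower, 0 called, with a median of -0.56 that was -0.23 without array 3. Flt1, a VEGF receptor, read 8.51, 8.66 and 9.71 without surgery and 7.30 to 8.34 after it (difference -1.10, adjusted p = 0.0818). Without array 3, 2 endothelial genes were called higher, Eng and Plvap, at 0.52 and 0.57. Of 17 fibroblast markers the median was 0.24, and 0.07 without array 3. Cd34, which marks adventitial fibroblasts and endothelium, read 9.92, 9.68 and 9.89 without surgery and 10.16 to 10.54 after it (difference 0.57, adjusted p = 0.0779); it was called without array 3, at 0.60. The thymocyte list had a median of -0.48 at day 4 and 0.19 at day 7, and its mean level was 6.82 to 7.07 at day 4 and 7.35 and 7.48 at day 7. The values of the 2 days did not overlap. Unoperated arrays lay at 6.88, 7.36 and 7.64.

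Red cell transcripts did not turn on array 3. Of 4 erythroid markers tested 0 were called, with 2 above and 2 below 0. The median of -0.47, and of -0.52 without array 3, lay between these pairs and describes neither. Slc4a1, the anion exchanger of the red cell membrane, read 9.75, 8.97 and 9.48 without surgery and 7.69 to 8.40 after it (difference -1.36, adjusted p = 0.129), and differed by -1.32 without array 3. Alas2, the first enzyme of haem synthesis in red cell precursors, read 12.49, 12.49 and 12.17 without surgery and 10.59 to 11.70 after it (difference -0.97, adjusted p = 0.190), and differed by -1.08 without array 3. The groups did not overlap for either gene. Hba-a1, an α-globin gene, lay between 14.57 and 14.89 on all 8 arrays and differed by 0.07. Hbb-bs, a β-globin gene, lay between 14.47 and 14.74 and differed by 0.04. Both globin genes lay at the upper end of the scale. The part of red cells in the sorted stroma in other differences was not tested.

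**Figure D3:**
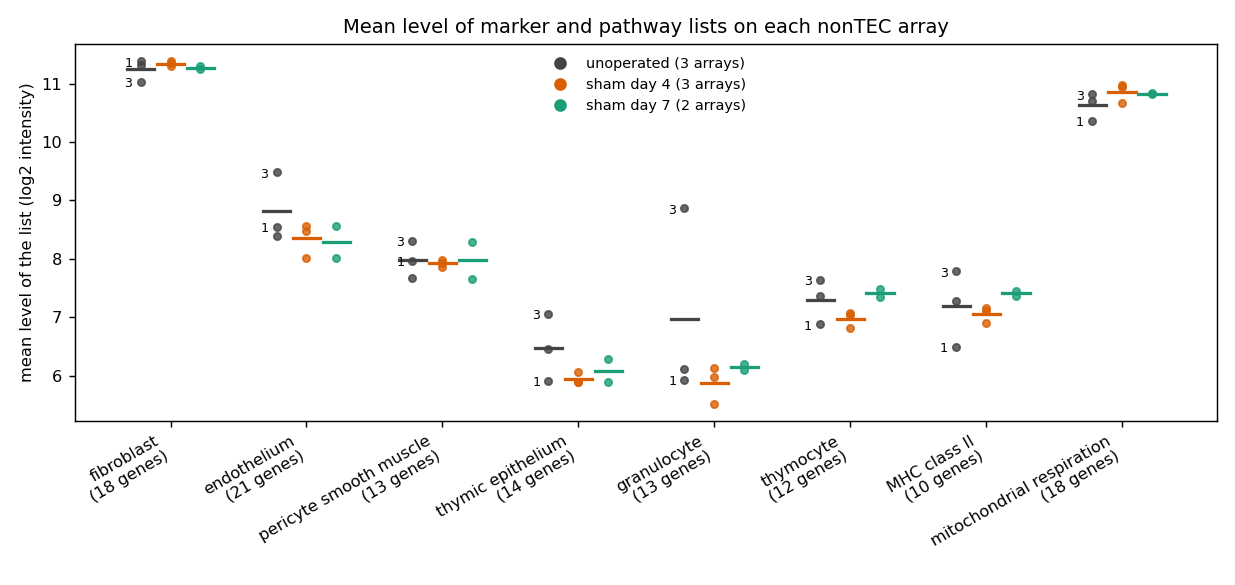
Mean level (log2 intensity, y axis) of 8 gene lists on each of the 8 nonTEC arrays; points are arrays, short lines group means, and the numerals 1 and 3 mark unoperated arrays 1 and 3. Array 3 is the highest point for granulocytes (8.86) and endothelium (9.48), and array 1 the lowest for MHC class II (6.50).

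Genes of energy metabolism lay slightly higher after surgery without being called. Of 17 respiratory chain genes 12 were higher, with a median of 0.14. Cox6c, a subunit of cytochrome oxidase, read 10.72, 10.75 and 11.49 without surgery and 11.31 to 11.85 after it (difference 0.55, adjusted p = 0.113). Without unoperated array 3 the median was 0.22 and 4 of them were called, Cox6c, Ndufa1, Ndufb8 and Atp5j, and without unoperated array 1 it was -0.01. Of 16 antioxidant genes 13 were higher, with a median of 0.27. Hmox1, the haem oxygenase, read 9.88, 10.06 and 10.26 without surgery and 10.54 to 10.89 after it (difference 0.65, adjusted p = 0.127). The antioxidant median was 0.14 without unoperated array 1, and without unoperated array 3 Sod1, a superoxide dismutase, was called at 0.54 (adjusted p = 0.0381). Of 16 ribosomal protein genes in the list the median was 0.12, and 0.04 without unoperated array 1.

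In the median over genes, the direction of the difference went with gene length. In 4 bins of 7766 genes by RefSeq genomic span, the median difference was 0.15 in the shortest, 0.04 and -0.05 in the middle bins and -0.10 in the longest. Of the 19 genes called higher, 12 were in the shortest bin (under 8.97 kb) and 0 in the longest (over 49.6 kb). Cd99 spans 1.43 kb and Grcc10 1.89 kb. Of the genes that fell, Trp63 spans 208 kb and Vps37b 27.6 kb, while Wfdc2, at 5.80 kb, is in the shortest bin. Unoperated array 1 lay at -0.26 in the shortest and 0.21 in the longest bin against the unoperated mean, opposite to each of the other 7 arrays. That mean includes array 1, whose deviation moves the values of the other 7 the opposite way, so they are not separate observations. Without unoperated array 1 the median differences from shortest to longest were 0.03, 0.01, -0.03 and -0.01. Without unoperated array 3 they ran from 0.22 to -0.16. The part of RNA quality on array 1 in the rises of short genes was not tested.

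**Figure D4:**
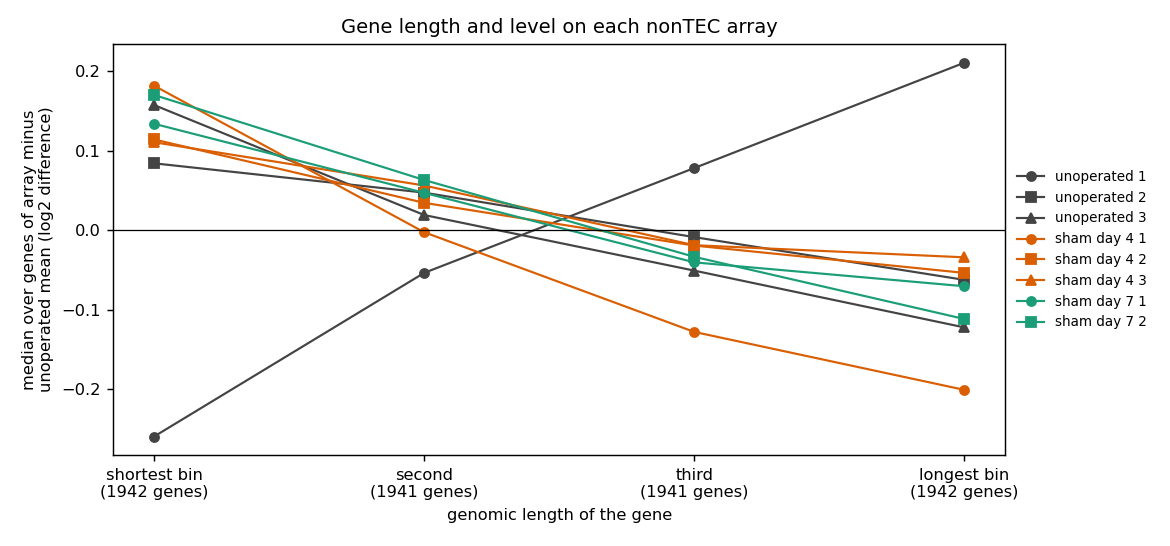
Median over genes of each array's level minus the unoperated mean (log2, y axis) in 4 bins of genes by genomic length (x axis), 1 line per nonTEC array. Unoperated array 1 runs upward, from -0.26 to 0.21, and the other 7 arrays run downward. The unoperated mean includes array 1, so the 7 downward lines are not separate observations.

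The call of a single gene depended on which arrays were used. Without unoperated array 1, 8 genes were called and 3 of the 22 were among them: Ptms (0.90), Man2b2 (0.92) and Wfdc2 (-2.31), each with an adjusted p = 0.0273. Without unoperated array 3, 353 genes were called, 252 higher and 101 lower, with all 22 among them. Without unoperated array 2 there were 114. Without sham array 1, 2 or 3 of day 4 the counts were 0, 6 and 2, and without array 1 or 2 of day 7 they were 0 and 1. Ptms was called in 6 of these 8 fits and Man2b2 in 4, more often than any other of the 22 genes. The difference kept its sign in all 8 for each of the 22 genes, with Ptms between 0.90 and 1.32 and Trp63 between -0.80 and -0.64. These fits share most of their arrays with the fit that chose the genes, so the kept sign is no separate support.

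Young and castrated nonTEC are set beside these values; they share the sham or unoperated arrays with the comparison, so no agreement is drawn from them. Ptms had a mean of 9.22 ± 0.49 (SD, n = 3) without surgery, 10.39 ± 0.24 (SD, n = 5) on the sham arrays, 9.91 at day 4 and 10.48 at day 7 after castration, and 10.28 in young mice. Paxx had 6.77, 8.09, 7.88, 8.21 and 7.34 in the same order, and S100a13 9.87, 10.75, 10.69, 10.76 and 10.70. Man2b2 had 7.24, 8.08, 7.38, 8.21 and 7.84. For these genes the unoperated group of 9 to 12 months had the lowest mean of the 6 nonTEC groups. Mustn1 differed in order, with 10.18 without surgery, 11.10 after sham surgery and 9.67 in young mice. Trp63 had 7.97 without surgery, 7.25 after sham surgery, 7.34 at day 4 and 7.77 at day 7 after castration, and 7.96 in young mice. Against young nonTEC, 2516 genes (32.4%) were called for the unoperated and 2297 (29.6%) for the sham arrays. Castrated nonTEC gave 892 calls (11.5%) against the unoperated and 508 (6.54%) against the sham arrays.

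The TEC arrays allow the same comparison in other samples, with 9 arrays of sham-operated and unoperated mice. None of the 22 genes was called there (0 of 22), where 247 of 8195 genes were (3.01%; 1774 at an unadjusted p under 0.05, limma). Of the 19 genes that rose in nonTEC, 7 were above and 12 below 0 in TEC, with a median of -0.14. Paxx differed by -0.20 ± 0.20 (SE), Ptms by -0.03 ± 0.27, Man2b2 by -0.44 ± 0.24 and Aldoa by -0.19 ± 0.15 in TEC. Trp63 differed by -0.52 ± 0.19 (SE, adjusted p = 0.120) there, the one of the 3 falling genes with the same sign.

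The difference between the fractions was tested over 8487 genes as an interaction. It compares differences within each fraction because the fractions appear to have been normalized apart. In it 170 genes were called (2%, with 1511 at an unadjusted p under 0.05). By sign, the nonTEC difference lay above the TEC difference for 146 (1.72%) and below it for 24 (0.283%). The sign does not tell in which fraction the change was larger. Paxx differed by 1.53 and Wfdc2 by -2.17 (adjusted p = 0.0121 for each) between the fractions, and both were called in all 17 fits that left out 1 array. In TEC, Wfdc2 lay at 12.47 to 13.78 on all 9 arrays, far above its levels in nonTEC, though levels cannot be compared exactly between the fractions. Gp2 differed by -2.01 (adjusted p = 0.0277), with 10.63 to 13.11 in TEC, and was called in 13 of 17. Its nonTEC part is bounded by the floor of the array. Exosc2, a subunit of the RNA exosome, had the largest interaction above 0, at 2.52, but its difference in nonTEC was 0.37 and in TEC -2.15. Col7a1, a collagen of epithelial anchoring fibrils, likewise had 0.21 in nonTEC and -1.35 in TEC.

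**Figure D5:**
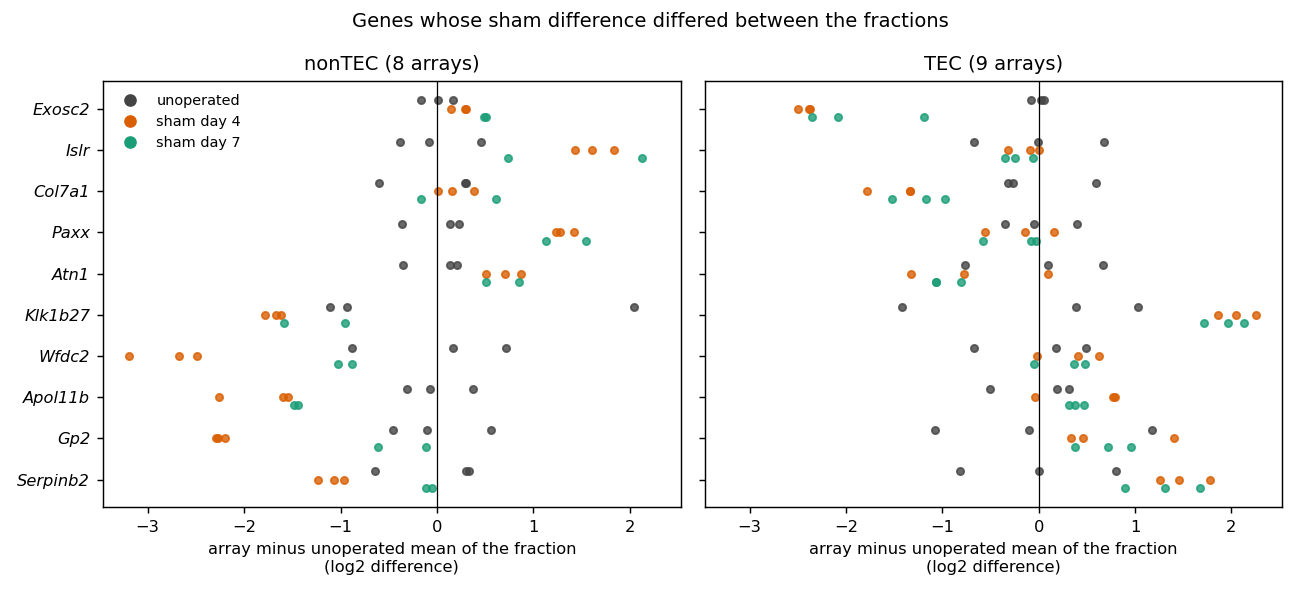
Level of each array minus the unoperated mean of its fraction (log2, x axis) for 10 genes (y axis) in nonTEC (left, 8 arrays) and TEC (right, 9 arrays). The sham points of Exosc2, Col7a1, Klk1b27 and Serpinb2 lie apart from the unoperated points in TEC. Those of Islr, Paxx, Atn1 and Apol11b lie apart in nonTEC. A single unoperated nonTEC array at 8.22 sets the unoperated nonTEC mean of Klk1b27.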

How the data were processed

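RNA of sorted TEC and nonTEC was measured on 41 Illumina arrays in 14 groups, after purification with Qiagen RNeasy kits and labelling with the Ambion TotalPrep kit, per the labels' protocols. The authors deposited normalized log2 intensities; the base is unstated and was taken as 2. The submitters' processing notes name limma, with no version and no other step. Quantiles of the arrays differ between TEC and nonTEC, so the fractions appear to have been normalized apart, and only differences within a fraction were compared.

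Of 24671 probes, 20825 carried 1 gene symbol, 11 several and 3835 none in the platform annotation; 20799 gene IDs matched RefSeq (GRCm38.p6). Each gene took its probe of highest mean over all arrays of the fraction fitted, or of both fractions for the interaction. It was tested where a group mean in that fit passed 6.73, the median of all values. Group means of all 17 nonTEC arrays (11 residual degrees of freedom) were fitted with limma 3.58.1 in R 4.3.3 (lmFit, contrasts.fit, eBayes with trend), with Benjamini-Hochberg adjustment over all genes tested and a threshold of 0.05. Standard errors and 95% intervals come from this fit. The interaction used all 41 arrays (27 residual degrees of freedom). The number of arrays limits the precision. Scripts were tested on simulated data. Named were up to 12 genes in each direction without overlap of arrays, 5 for the other contrasts, called list members and a set of 26 genes, of which 22 were analysed. The members, the 35 lists and these rules were chosen with earlier results of these data known. Alternatives covered filters, scaling, probes, weights, trend, samples fitted, covariates and left-out arrays.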

Additional observations from a re-analysis of the deposited data

Results flagged for a closer look

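For 10 genes the sham difference itself differed between nonTEC and TEC in the interaction test (limma, adjusted p under 0.05), which is why they are listed; values are the nonTEC difference minus the TEC difference on the log2 scale. Exosc2 had 2.52 (adjusted p = 6.72e-06) and was called in all 17 fits that left out 1 array; its nonTEC difference was 0.37. Islr, a leucine-rich repeat protein of mesenchymal cells, had 1.71 and was called in 13 of 17, with 1.53 in nonTEC by the probe present in both fractions, whereas the brighter nonTEC probe of Islr differed by -0.46. Col7a1 had 1.56 and was called in 13 of 17. Paxx had 1.53 and was called in 17 of 17. Atn1, a transcriptional corepressor, had 1.51 and was called in 14 of 17, with 0.69 in nonTEC and -0.82 in TEC.

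Klk1b27, a kallikrein, had -3.48 and was called in 7 of 17. Its nonTEC levels were 5.24, 8.22 and 5.07 without surgery and 4.4 to 5.22 after it, so 1 unoperated array set the nonTEC value. Wfdc2 had -2.17 and was called in 17 of 17, and Gp2 had -2.01, with its day 4 nonTEC levels near the floor of the array, and was called in 13 of 17. Apol11b had -2.08 and was called in 3 of 17. Its nonTEC levels were 9.41, 8.73 and 8.97 without surgery and 6.78 to 7.59 after it, with no overlap. Serpinb2, an inhibitor of plasminogen activators, had -1.98 and was called in 10 of 17, with -0.59 in nonTEC and 1.39 in TEC.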

How the results depend on the processing

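The average over both days gave 22 called genes in limma. The count was 10 with no filter on dim genes, 36 with the mean of all probes, 40 with array weights (whose fits did not all converge), 3 when only the 8 arrays were fitted, 94 with all 41 arrays, and 115 and 156 with the granulocyte or the endothelial mean as a covariate, both chosen after seeing the data. It was 0 to 353 with 1 array left out. At day 4, where 3 genes were called, it was 1 with array weights, 11 with all 41 arrays and 0 to 124 with 1 array left out. At day 7, where 0 were called, it was 63 with array weights, 12 with all 41 arrays and 0 to 52 with 1 array left out. Between the days it was 4 with array weights, 1 with just the compared arrays in the fit and 0 to 0 with 1 array left out. The interaction, with 170 calls, gave 104 with arrays centred on their median, 366 with array weights, 1 with just the compared arrays in the fit, 609 without the TEC arrays that stood apart (chosen after seeing the data) and 30 to 626 with 1 array left out; its largest counts came without unoperated TEC array 1, and its lowest without sham nonTEC array 1 of day 7. Deviations of same-numbered arrays from their group means correlated at -0.34 to 0.19 and of others at -0.19 to 0.35. Within a group the deviations sum to 0, so these values depend on one another. They cannot tell whether replicate numbers pair the samples. With the replicate block the counts were 12 for the average, 6 at day 4, 0 at day 7, 0 between days and 262 for the interaction. In these alternatives 216 values of named genes lost their call, 24 gained one and 1133 kept their side of the threshold, and none changed sign while called. The causes were not tested.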

Other observations

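Pth, which encodes parathyroid hormone, varied among the unoperated arrays, at 6.92, 11.05 and 9.62, while the 5 sham arrays lay between 7.28 and 9.03; it was chosen after its values were seen and was not called (difference -0.74, adjusted p = 0.501). Klk1, a kallikrein of glands, read 9.42 on unoperated array 2 and 4.47 to 6.38 on the other 7 arrays. This was the array with the high level of Klk1b27.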
